A study of Mus musculus with 4 samples.

Results

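Histones are the proteins around which DNA is wound in the nucleus, and their genes were examined here on whole-transcript arrays of cultured mouse keratinocytes with and without the glucose transporter Glut1. Members were taken by symbol: each array row whose platform annotation names exactly 1 gene, with a symbol that follows the histone nomenclature, entered, and where a gene had several rows the one with the highest mean stood for it. This gave 38 histone genes of the 22180 genes tested, from 40 rows, and 2 of the genes had a second, dimmer row. Of the 38 genes, 30 were assigned to the replication-dependent class, because their present or earlier symbol places them in a histone gene cluster, and 8 were assigned to the variant class. No H3 gene had a row of its own. The H3 genes and many H2A, H2B and H4 genes were measured by rows that name several histone genes, and those rows are described after the single genes.

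Keratinocytes, the epithelial cells of the epidermis, came from mice aged 1 week on the C57BL/6J strain. Glut1-deficient cells carried Glut1 fl/fl and K14 Cre, a recombinase under the promoter of keratin 14, which is active in basal keratinocytes and other stratified epithelia, so cells of other types in such a culture would keep the gene. WT cells carried Glut1 fl/fl alone, so both genotypes held the floxed allele. With 4 mice per genotype, cells were grown in low-calcium medium at 0.05 mM, reseeded at equal number after 3 days and collected 1 day later, and each array held a pool of 2 plates. That left 2 arrays per genotype, lysed, per the labels, from fewer cells each for Glut1-deficient than for WT.

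Replication-dependent histones package newly made DNA. Their genes lie in clusters, carry no introns, are transcribed mainly in S phase, and give mRNAs that end in a stem-loop bound by Slbp instead of a poly(A) tail. Variant histones, such as H2A.Z, H2A.X and H3.3, are encoded by single genes that are also expressed outside S phase, mostly through polyadenylated mRNAs, and they mark promoters, damaged DNA or active chromatin. In the epidermis, proliferating basal keratinocytes go through S phase, whereas cells that leave the basal layer stop dividing.

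Array values are log2 intensities. Array medians lay between 4.07 and 4.11, and the median level over genes was 4.76. Arrays correlated at r = 0.9951 within the Glut1-deficient pair and 0.9962 within the WT pair, against 0.9866 to 0.9909 between genotypes. Slc2a1, the gene of Glut1, did not check the labels. Its bright row read 11.01 and 11.01 on the Glut1-deficient arrays and 11.13 and 11.05 on the WT arrays, and its dim row read 4.796 and 4.44 on the Glut1-deficient arrays and 5.18 and 5.09 on the WT arrays. The rows are not known to cover the deleted part, so the genotype names follow the labels. Of 9 keratinocyte markers, 8 had a mean above the median level, the exception being Krt1, a keratin of differentiating cells. Krt14, the keratin of basal cells, read 12.15 and 12.21 on the Glut1-deficient arrays and 12.56 and 12.54 on the WT arrays.

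Of the 38 histone genes, 4 fell in Glut1-deficient cells and 0 rose by limma's moderated test at an adjusted p of 0.05 over all genes. Over all genes, 1.05% fell and 1.79% rose, 2.84% in all. The 4 genes were H2bc12, H2bc3 and H2ac20 of the replication-dependent class (3 of 30) and H2ax of the variant class (1 of 8). At an unadjusted p of 0.05, 11 of the 30 replication-dependent genes were lower and 0 higher, against 11.2% of all genes lower. Among the 8 variants, 2 were lower and 1 was higher at that level. Fewer cells of a kind, such as cells in S phase, and less of these mRNAs per cell cannot be told apart here behind lower levels. By limma, no gene among all 22180, and so no histone gene, passed when any 1 of the 4 arrays was left out, although 10 to 13 of the 30 replication-dependent genes then had an unadjusted p under 0.05. With an intensity trend in limma's prior variance, 10 of the 30 replication-dependent genes and 2 of the 8 variants passed, and with every row of the array in the fit 0 passed (11 and 3 rows of these classes at an unadjusted p under 0.05).

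Counted without a threshold, both Glut1-deficient arrays lay below both WT arrays for 11 of the 30 replication-dependent genes and for 2 of the 8 variants, against 27.7% of all genes. The reverse order was seen for 3 replication-dependent genes and 2 variants, against 25.5% of all genes, and the arrays of the genotypes overlapped for 16 and 4. The median log2 difference, Glut1-deficient minus WT, was -0.15 for the replication-dependent genes and 0.00 for the variants, beside -0.01 for all genes. The gap between the class medians was -0.16. The difference between the median levels of the 2 classes on an array varied with a pooled SD of 0.117 within genotypes. This SD concerns levels and is no error for the gap in log2 differences. With 1 array left out, the replication-dependent median ranged between -0.24 and -0.07, the value nearest to 0 being that without WT array 1.

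**Figure D1:**
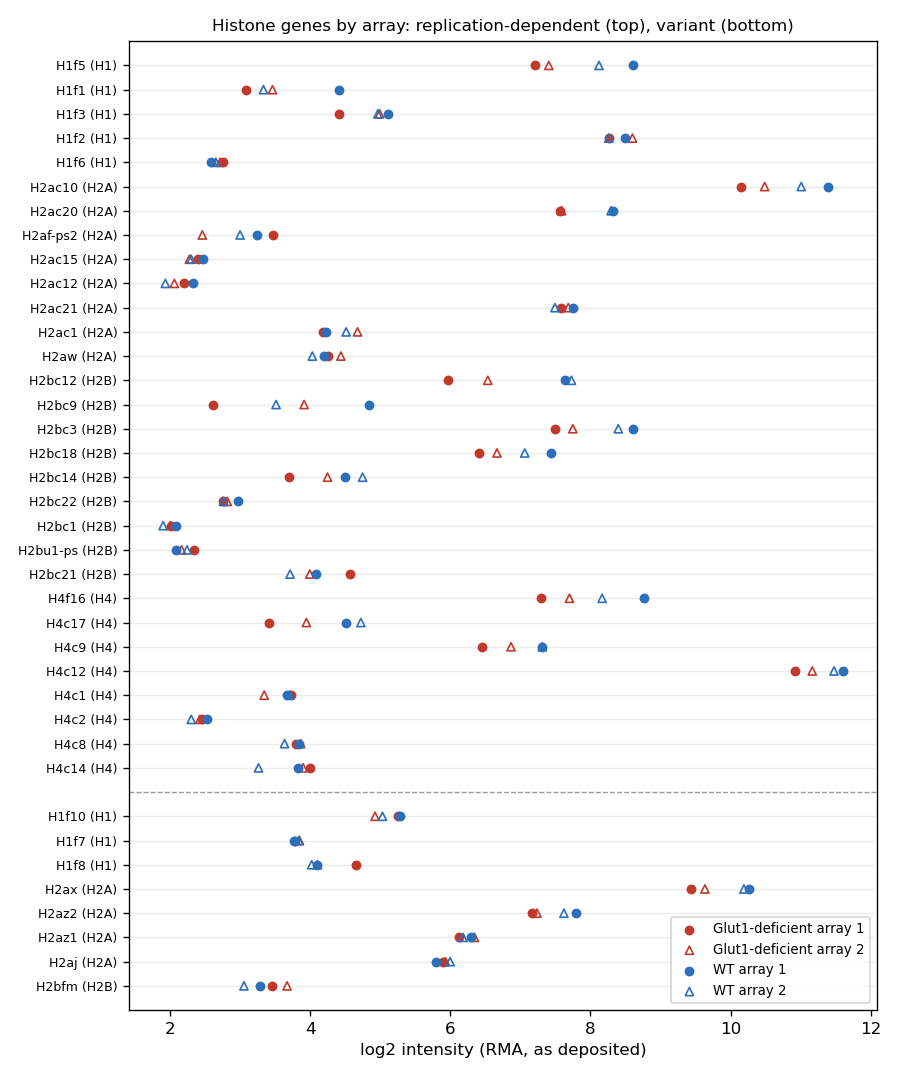
Log2 intensity of each histone gene (x axis, RMA values as deposited) on the Glut1-deficient arrays and the WT arrays, with replication-dependent genes above and variants below. For H2bc12, H2bc3, H2ac20 and H2ax both Glut1-deficient arrays lie left of both WT arrays, whereas the arrays of the genotypes overlap for 20 of the 38 genes.

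The replication-dependent genes divided by level. The 12 whose mean exceeded the median level of all genes included 9 with both Glut1-deficient arrays below both WT arrays and 0 in the reverse order, and their median difference was -0.72. Among all genes above that level, 36.3% were lower on both arrays and 1.89% fell, and their median difference was -0.02. The 18 replication-dependent genes at or below the median level included 2 lower and 3 higher, with 13 overlapping, and had a median difference of 0.01. In H1f3 of the brighter set the Glut1-deficient mean of 4.70 lay below the median level and the WT mean of 5.04 above it, so these counts describe the genes on either side of a line and are not counts over the whole class. The dim genes include H1f6, H2ac1 and H2bc1, which encode the testis histones H1t, TH2A and TH2B, and the pseudogenes H2af-ps2 and H2bu1-ps. Without these 5, the median difference of the remaining 25 replication-dependent genes was -0.50, a selection made after the values were known.

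**Figure D2:**
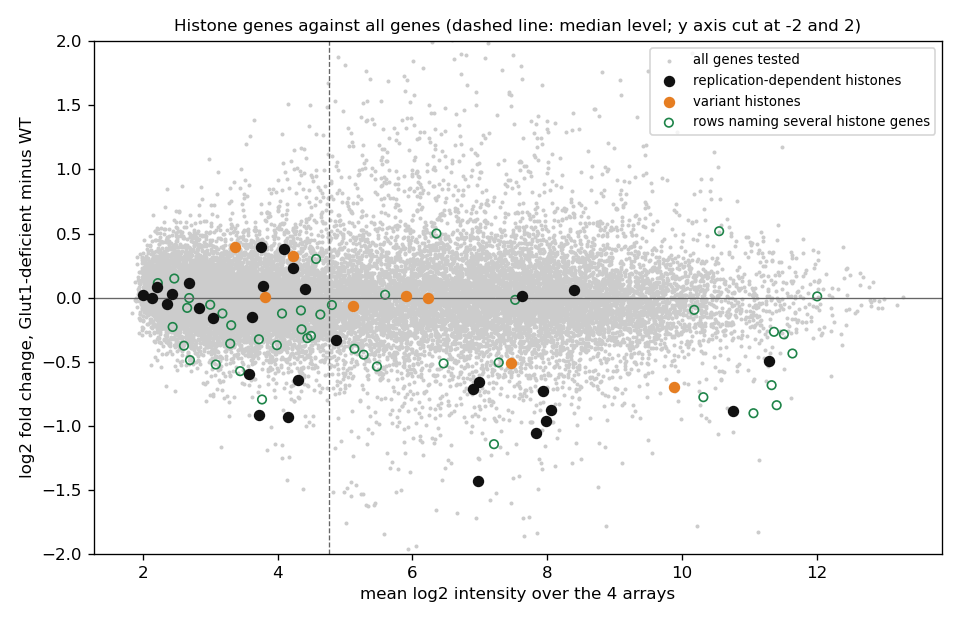
Log2 fold change, Glut1-deficient minus WT (y axis), against mean log2 intensity over the 4 arrays (x axis) for all genes tested, the 2 classes of histone genes and the rows naming several histone genes. Most histone points right of the dashed median level lie below 0, while those left of it scatter on both sides.

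Linker histone H1 binds the DNA between nucleosomes. The replication-dependent class held 5 H1 genes, of which 0 passed the test and 1 was lower on both arrays (20%, against 27.7% of all genes). H1f5, which encodes H1.5, read 7.20 and 7.41 on the Glut1-deficient arrays and 8.60 and 8.12 on the WT arrays. Its groups did not overlap, and its log2 difference was -1.06 (SE 0.184, 2.08-fold lower), with an adjusted p of 0.0594 by limma. H1f2, which encodes H1.2, read 8.27 and 8.60 on the Glut1-deficient arrays and 8.49 and 8.26 on the WT arrays. These arrays overlapped, and the difference of 0.06 had a 95% interval between -0.33 and 0.45, which leaves out the size measured for H1f5, and the gap between the 2 genes was not tested. H1f3, which encodes H1.3, read 4.42 and 4.99 on the Glut1-deficient arrays and 5.11 and 4.97 on the WT arrays, a difference of -0.33. H1f1, which encodes H1.1, read 3.09 and 3.47 on the Glut1-deficient arrays and 4.41 and 3.34 on the WT arrays, so that WT array 1 stood above the other 3. The testis gene H1f6 was dim, at 2.76 and 2.72 on the Glut1-deficient arrays and 2.60 and 2.66 on the WT arrays.

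The promoters of H1f5 and H1f2 are shown because these bright H1 genes differed in their measured change. Each is the RefSeq window of 300 bases (250 before and 50 after the gene's start) in build GRCm38.p6, read 5′ to 3′ on the gene's strand. Capitals mark any of 4 motifs sought on both strands: the TATA box (TATAAA), the CCAAT box (CCAAT), the octamer of H2B promoters (ATTTGCAT) and the H1 box (AAACACA).
H1f5, chr13:21780576-21780875, minus strand: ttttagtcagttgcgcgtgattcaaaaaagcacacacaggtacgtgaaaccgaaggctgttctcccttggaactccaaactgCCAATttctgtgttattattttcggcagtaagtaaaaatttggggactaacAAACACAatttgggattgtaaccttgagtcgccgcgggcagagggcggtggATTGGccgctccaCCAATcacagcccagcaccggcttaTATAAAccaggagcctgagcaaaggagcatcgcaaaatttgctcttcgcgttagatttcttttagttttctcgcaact
H1f2, chr13:23738557-23738856, plus strand: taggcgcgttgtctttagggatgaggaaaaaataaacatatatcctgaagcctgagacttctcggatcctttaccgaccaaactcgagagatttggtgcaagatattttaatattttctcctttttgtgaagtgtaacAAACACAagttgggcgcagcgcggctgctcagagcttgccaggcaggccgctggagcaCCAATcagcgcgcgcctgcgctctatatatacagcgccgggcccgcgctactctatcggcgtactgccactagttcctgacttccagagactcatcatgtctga
Counting from the start of the gene, the H1 box lies at -117 in H1f5 and at -112 in H1f2, and both windows hold a CCAAT box, at -53 in H1f5 and at -54 in H1f2. The H1f5 window also holds the TATAAA letters at -28. The H1f2 window lacks these exact letters but reads tatatata behind its CCAAT box, which the search did not count. The H1 box letters were found in 4 of the 5 replication-dependent H1 promoters and in 7.18% of the 32851 mouse promoters of the table.

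H2A and H2B pair as dimers on the outside of the nucleosome. Of the 8 replication-dependent H2A genes, 1 fell and 2 were lower on both arrays (25%). Over all genes, 1.05% fell and 27.7% were lower on both arrays. H2ac20 read 7.56 and 7.59 on the Glut1-deficient arrays and 8.32 and 8.29 on the WT arrays. The replicates lay close together, at 7.58 ± 0.017 for Glut1-deficient and 8.31 ± 0.020 for WT (SD, n = 2 each), and H2ac20 fell by 0.73 on the log2 scale (SE 0.0835, 1.66-fold lower, limma adjusted p = 0.0295). H2ac10 read 10.15 and 10.48 on the Glut1-deficient arrays and 11.39 and 11.01 on the WT arrays. It was lower on both arrays, by a difference of -0.88 (SE 0.182, 1.84-fold lower), and did not pass limma (adjusted p = 0.0798).

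The other 6 H2A genes did not share this order. H2ac21, which lies beside H2ac20 in the smaller cluster, read 7.58 and 7.68 on the Glut1-deficient arrays and 7.75 and 7.49 on the WT arrays. Its groups overlapped and its difference was 0.01, with a 95% interval between -0.30 and 0.32. H2aw, formerly Hist3h2a, read 4.26 and 4.44 on the Glut1-deficient arrays and 4.20 and 4.03 on the WT arrays, both higher, with a difference of 0.23 and an adjusted p of 0.314 by limma. H2ac12, H2ac15, H2ac1 and H2af-ps2 were dim and overlapped, with differences between -0.16 and 0.06.

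Of the 9 replication-dependent H2B genes, 2 fell and 4 were lower on both arrays (44.4%), against 1.05% and 27.7% of all genes. H2bc12 read 5.97 and 6.54 on the Glut1-deficient arrays and 7.64 and 7.73 on the WT arrays. The means were 6.25 ± 0.40 for Glut1-deficient and 7.68 ± 0.063 for WT (SD, n = 2 each), and H2bc12 fell by 1.43 on the log2 scale (SE 0.200, 2.70-fold lower, limma adjusted p = 0.0417), the most negative difference among the 38 genes. H2bc3 read 7.49 and 7.75 on the Glut1-deficient arrays and 8.60 and 8.40 on the WT arrays. It fell by 0.88 (SE 0.132, 1.84-fold lower, limma adjusted p = 0.0476), with no overlap.

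Further H2B genes went the same way without passing the test. H2bc18 read 6.41 and 6.67 on the Glut1-deficient arrays and 7.44 and 7.06 on the WT arrays (difference -0.71, limma adjusted p = 0.0986). H2bc14 read 3.71 and 4.25 on the Glut1-deficient arrays and 4.50 and 4.75 on the WT arrays, a difference of -0.64. In H2bc9 the arrays of each genotype spread widely, at 2.61 and 3.92 for Glut1-deficient and 4.84 and 3.52 for WT, and its difference of -0.91 had a 95% interval between -2.45 and 0.62. H2bc21 read 4.56 and 4.00 on the Glut1-deficient arrays and 4.09 and 3.72 on the WT arrays, the most positive difference of the family at 0.38, with overlap and an interval between -0.22 and 0.97. H2bc22, the testis gene H2bc1 and the pseudogene H2bu1-ps were dim, overlapped and differed by -0.08 to 0.09.

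The promoters of the 3 replication-dependent genes that fell are shown in the same way, with the same 4 motifs in capitals.
H2bc12, chr13:22035571-22035870, plus strand: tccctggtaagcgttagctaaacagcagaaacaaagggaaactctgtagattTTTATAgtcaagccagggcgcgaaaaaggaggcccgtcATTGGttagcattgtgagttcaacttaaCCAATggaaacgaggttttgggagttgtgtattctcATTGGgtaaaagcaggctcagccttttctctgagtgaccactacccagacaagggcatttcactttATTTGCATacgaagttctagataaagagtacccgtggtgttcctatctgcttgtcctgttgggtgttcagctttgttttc
H2bc3, chr13:23746484-23746783, plus strand: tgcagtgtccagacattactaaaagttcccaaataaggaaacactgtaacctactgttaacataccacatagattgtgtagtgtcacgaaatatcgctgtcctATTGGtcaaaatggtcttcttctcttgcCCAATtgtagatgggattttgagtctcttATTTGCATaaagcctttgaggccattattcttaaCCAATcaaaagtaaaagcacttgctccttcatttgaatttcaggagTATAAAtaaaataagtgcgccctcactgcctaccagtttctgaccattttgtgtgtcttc
H2ac20, chr3:96220831-96221130, minus strand: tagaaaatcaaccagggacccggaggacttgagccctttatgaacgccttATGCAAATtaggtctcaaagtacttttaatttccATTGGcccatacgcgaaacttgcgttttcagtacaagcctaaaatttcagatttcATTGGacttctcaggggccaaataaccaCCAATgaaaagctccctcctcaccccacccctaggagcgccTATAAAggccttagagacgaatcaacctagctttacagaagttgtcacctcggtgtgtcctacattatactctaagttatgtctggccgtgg
All 3 windows hold the octamer letters, at -30 in H2bc12, at -90 in H2bc3 and at -200 on the opposite strand in H2ac20. Of the 26 replication-dependent promoters in the table, 9 held the octamer (4 of 7 H2A and 5 of 7 H2B, and 0 of the H1 and H4 promoters), against 1.74% of all promoters. The windows of H2ac1 and H2bc1 share 220 bases and those of H2ac12 and H2bc12 share 277. In each pair the octamer is 1 site counted for both genes, so these counts are not of separate sites. Of those 9 genes, 3 fell and 5 were lower on both arrays, and of the 17 without the octamer, 0 fell and 6 were lower on both arrays. Over all genes, 1.05% fell and 27.7% were lower on both arrays. All 9 are H2A or H2B genes, so the split by octamer is in part a split by family, and the gap between its sides was not tested. The differences within the 9 ran between -1.43 and 0.23, so genes with the same letters differed widely. The 3 genes that fell also all held the TATAAA and CCAAT letters. TATAAA lay at -10 in H2bc3 and at -42 in H2ac20. In H2bc12 it lay only at -198 on the opposite strand, in bases shared with the window of H2ac12. Lower on both arrays were 7 of the 16 genes with TATAAA and 4 of the 10 without, and 7 of the 20 with CCAAT and 4 of the 6 without. TATAAA was found in 16 of the 26 and CCAAT in 20 of the 26, against 13.6% and 37.4% of all promoters. Among the 7 variant promoters in the table, TATAAA, the octamer and the H1 box were found in 0 and CCAAT in 5. These matches describe letters in a window and not binding.

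H4 forms the core tetramer of the nucleosome with H3. Of the 8 H4 genes, 0 passed the test and 4 were lower on both arrays (50%, against 27.7% of all genes). Each of these 4 had a limma adjusted p between 0.0844 and 0.110. H4f16, formerly Hist4h4, read 7.30 and 7.70 on the Glut1-deficient arrays and 8.76 and 8.17 on the WT arrays (difference -0.96, SE 0.241, limma adjusted p = 0.110). Its second, dimmer row differed by -0.21. H4c12 read 10.92 and 11.16 on the Glut1-deficient arrays and 11.60 and 11.47 on the WT arrays, a difference of -0.50 (1.41-fold lower).

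In H4c9, the Glut1-deficient arrays read 6.45 and 6.87 and the WT arrays 7.31 and 7.31, a difference of -0.66. The dim H4c17 read 3.42 and 3.95 on the Glut1-deficient arrays and 4.51 and 4.73 on the WT arrays, a difference of -0.93. H4c14 read 3.99 and 3.90 on the Glut1-deficient arrays and 3.83 and 3.27 on the WT arrays, higher on both, with a difference of 0.40 (0.11 to 0.68 with 1 array left out) and an adjusted p of 0.326 by limma. H4c1, H4c2 and H4c8 were dim and overlapped, with differences between -0.15 and 0.09.

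**Figure D3:**
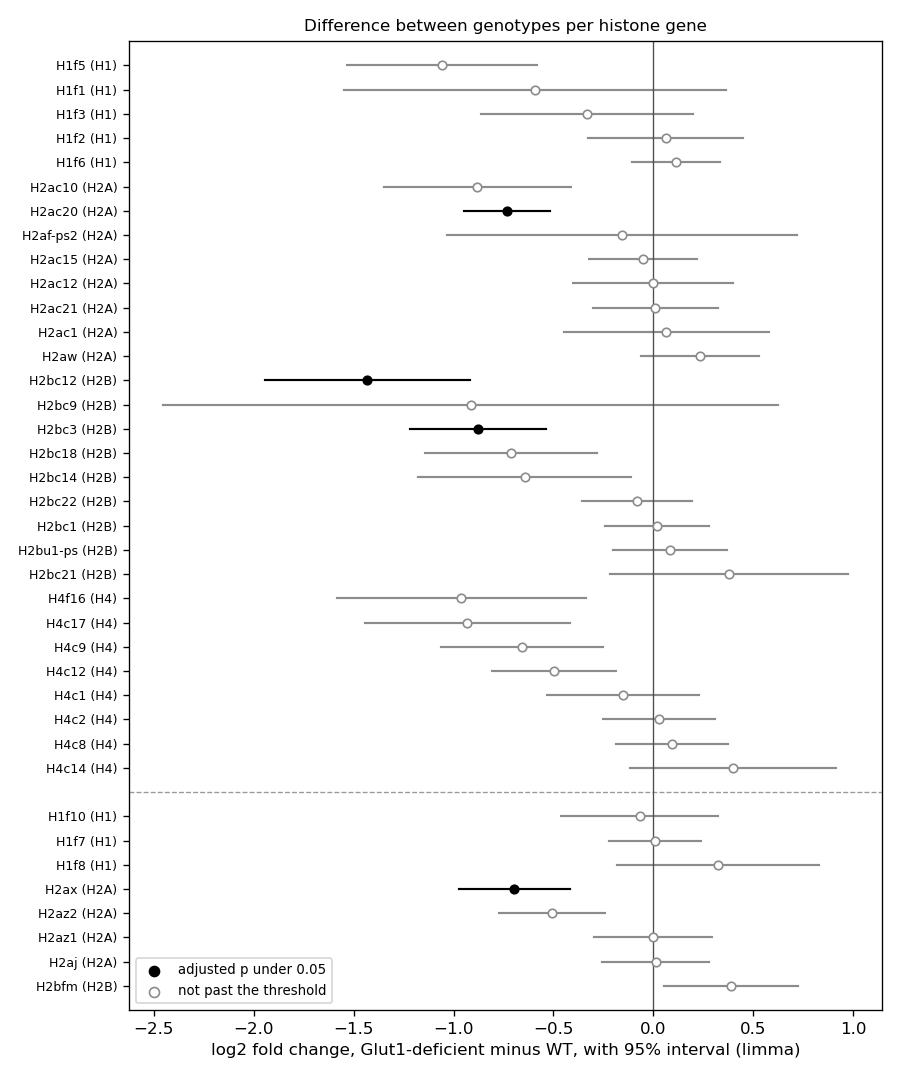
Log2 fold change of each histone gene, Glut1-deficient minus WT (x axis), with its 95% interval from limma, and with filled points for adjusted p under 0.05. The 4 filled points, H2bc12, H2bc3, H2ac20 and H2ax, lie left of 0, and the widest interval belongs to H2bc9.

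Neighbouring histone genes were set side by side. The larger cluster, with 22 members on chromosome 13, held 2 genes that fell and 8 that were lower on both arrays (36.4%, against 27.7% of all genes), with a median difference of -0.25. The smaller one, with 5 members on chromosome 3, held 1 gene that fell and 2 that were lower on both arrays, with a median of 0.01. H2bc12 and its neighbour H2ac12 start in opposite directions and their promoter windows share 277 bases, yet their measured differences were -1.43 and 0.00, the second in a dim gene. H2ac20 (-0.73) lies between H2ac21 (0.01) and H2bc21 (0.38). H4f16 (-0.96) has the variant gene H2aj (0.01) as its neighbour. Near-identical histone genes can share probes even in rows annotated with 1 gene, so a difference between neighbours may include signal of other copies.

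Among the 8 variants, H2ax fell, and it was the sole variant past the test. H2ax encodes H2A.X, which is phosphorylated around DNA double-strand breaks, and it is transcribed both as a stem-loop mRNA and as a polyadenylated one. It read 9.43 and 9.63 on the Glut1-deficient arrays and 10.27 and 10.19 on the WT arrays. H2ax fell by 0.70 on the log2 scale (SE 0.108, 1.62-fold lower, limma adjusted p = 0.0492), and its groups did not overlap. H2az2 and H2az1 encode the H2A.Z proteins, which sit beside transcription start sites. H2az2 read 7.17 and 7.24 on the Glut1-deficient arrays and 7.80 and 7.62 on the WT arrays, lower on both, with a difference of -0.51 (SE 0.102, 1.42-fold lower, limma adjusted p = 0.0764). H2az1 read 6.12 and 6.35 on the Glut1-deficient arrays and 6.29 and 6.18 on the WT arrays, with overlap and a difference of 0.00 (95% interval -0.30 to 0.29). The interval of H2az1 does not reach the difference measured for H2az2, and the gap between the 2 genes was not tested.

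H2aj, which encodes H2A.J, read 5.90 and 5.93 on the Glut1-deficient arrays and 5.80 and 6.00 on the WT arrays (difference 0.01, 95% interval -0.26 to 0.28). H1f10, which encodes the linker variant H1.X, read 5.25 and 4.93 on the Glut1-deficient arrays and 5.28 and 5.03 on the WT arrays (difference -0.07, interval -0.46 to 0.33). Both genes overlapped between the genotypes. The other 3 variants, of which H1f7 and H1f8 are known from germ cells, were dim. The spermatid gene H1f7 read 3.78 and 3.85 on the Glut1-deficient arrays and 3.77 and 3.84 on the WT arrays. The oocyte gene H1f8 read 4.66 and 4.11 on the Glut1-deficient arrays and 4.10 and 4.03 on the WT arrays, a difference of 0.32 (0.05 to 0.60 with 1 array left out). H2bfm read 3.45 and 3.67 on the Glut1-deficient arrays and 3.29 and 3.06 on the WT arrays, higher on both, with a difference of 0.39 (interval 0.06 to 0.73) and an adjusted p of 0.177 by limma.

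A further 46 rows name 2 to 13 genes, histone genes among them, and 43 of these rows were distinct. They cover histone genes with no row of their own. Many of them also name genes that have one, such as H2ac20, H2bc12 and H4c12, so they are no separate reading of the former. Both Glut1-deficient arrays lay below both WT arrays in 23 of the 43 and above them in 2, against 24.5% and 23.5% of all 41345 rows, and 18 overlapped. The differences were negative in 36 of 43, with a median of -0.29 and a range between -1.14 and 0.52. By limma over all 41345 rows, 0 passed (as for every row of the table), and 14 of the 43 had an unadjusted p under 0.05, against 16.2% of all rows. These rows share genes and probes with each other, so they are not independent of each other or of the single genes.

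Of the 12 rows for replication-dependent H3, the partner of H4, 6 were lower on both arrays, against 24.5% of all rows. In 11 of the 12 the difference was negative, and the median was -0.34. The brightest of them, which names H3c15 with 7 further genes, read 6.85 and 7.21 on the Glut1-deficient arrays and 7.62 and 7.45 on the WT arrays (difference -0.51, lower on both). The 7 rows for H3.3, the variant encoded by H3f3a and H3f3b, differed by -0.29 to 0.02 with a median of -0.10, and 5 were lower on both arrays. The brightest H3.3 row read 11.32 and 11.41 on the Glut1-deficient arrays and 11.72 and 11.59 on the WT arrays (difference -0.29). A row for H3f3a and a predicted gene read 10.15 and 10.12 on the Glut1-deficient arrays and 10.23 and 10.22 on the WT arrays (difference -0.10). The gap between the H3 and H3.3 rows was not tested.

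Of the 8 H2B rows, 5 were lower on both arrays (against 24.5% of all rows), with a median of -0.41. A row for 12 H2B genes, H2bc6, H2bc8 and H2bc4 among them, read 10.50 and 10.72 on the Glut1-deficient arrays and 11.61 and 11.41 on the WT arrays (difference -0.90). A row for H2bc13, H2bc15, H2bc11 and H2bc7 read 10.87 and 11.09 on the Glut1-deficient arrays and 11.90 and 11.74 on the WT arrays (difference -0.84). One bright row for H2bc4, H2bc8 and H2bc6 went the other way, at 10.77 and 10.85 on the Glut1-deficient arrays and 10.21 and 10.38 on the WT arrays, a difference of 0.52. Another row naming the same 3 genes read 6.05 and 6.36 on the Glut1-deficient arrays and 6.81 and 6.63 on the WT arrays (difference -0.51), so rows for one gene group disagreed in direction.

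Of the 9 H2A rows, 4 were lower on both arrays (against 24.5% of all rows), with a median of -0.22. A row for 10 H2A genes, headed by H2ac11, read 6.22 and 7.06 on the Glut1-deficient arrays and 7.995 and 7.57 on the WT arrays (difference -1.14). The row shared by H2ac18, H2ac19 and H2ac20 read 11.91 and 12.11 on the Glut1-deficient arrays and 12.06 and 11.93 on the WT arrays. It overlapped, with a difference of 0.01 beside the -0.73 of the row for H2ac20 alone. Of the 5 H4 rows, 2 were lower on both arrays (against 24.5% of all rows), with a median of -0.44. In a row for 13 H4 genes, Glut1-deficient array 1 stood apart at 7.35, with 5.87 on Glut1-deficient array 2 and 6.00 and 6.21 on the WT arrays.

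**Figure D4:**
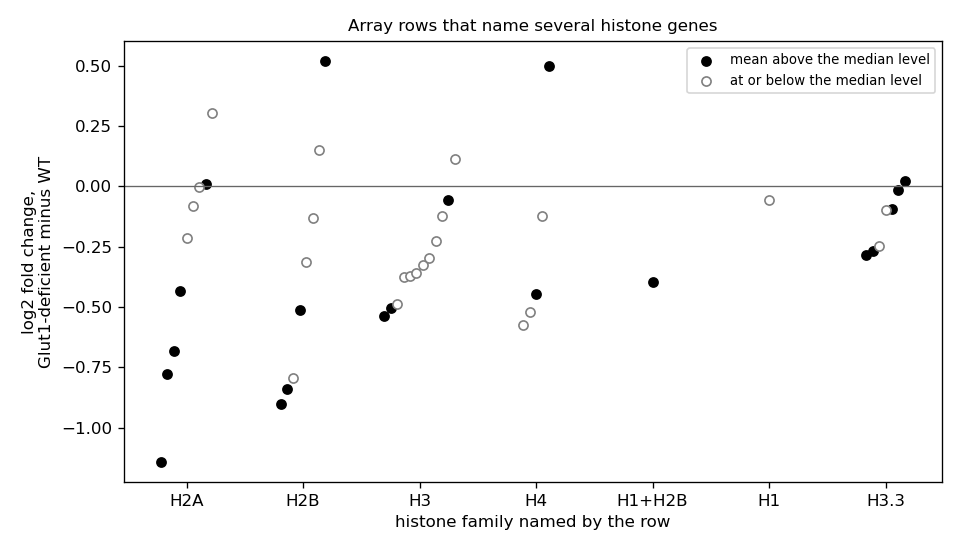
Log2 fold change, Glut1-deficient minus WT (y axis), of the array rows that name several histone genes, by family (x axis), with filled points for rows whose mean exceeds the median level of all genes. The H3.3 rows lie between -0.29 and 0.02, and the H2B row at 0.52 stands apart from the other bright H2B rows.

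Histone mRNA levels depend on a processing machinery that cuts the transcript behind the stem-loop. The processing list also held genes outside that machinery, such as Ccne1, Cdk2 and Npat, which act on histone transcription. Of its 28 symbols, 25 were measured, and Tut4 and Tut7 were listed a second time under their older symbols Zcchc11 and Zcchc6. Of these, 1 fell and 0 rose, against 1.05% and 1.79% of all genes, and 9 were lower at an unadjusted p under 0.05, against 11.2%. Both Glut1-deficient arrays lay below both WT arrays for 15, against 27.7% of all genes and 36.3% of those above the median level, where 24 of the 25 lay, and the median difference was -0.21. Slbp, the protein that binds the stem-loop and accompanies the mRNA, read 8.16 and 8.06 on the Glut1-deficient arrays and 8.76 and 8.88 on the WT arrays. Slbp fell by 0.71 on the log2 scale (SE 0.0958, 1.63-fold lower, limma adjusted p = 0.0393). Casp8ap2, the FLASH protein of the cleavage complex, read 7.04 and 7.02 on the Glut1-deficient arrays and 7.62 and 7.54 on the WT arrays (difference -0.55, limma adjusted p = 0.0514). Ccne1, the cyclin that with Cdk2 activates histone transcription through Npat, differed by -0.54 (limma adjusted p = 0.0713), and Npat itself by -0.30 (limma adjusted p = 0.152). Lsm10, a subunit of the U7 particle that guides the cut, read 8.50 and 8.51 on the Glut1-deficient arrays and 8.43 and 8.41 on the WT arrays, a difference of 0.08.

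Of 33 listed genes for histone chaperones and deposition factors, which carry histones to DNA, 31 were measured. By limma 0 passed, and 13 had an unadjusted p under 0.05 (12 lower, 1 higher), against 22.2% of all genes (11.2% lower). Lower on both arrays were 20, against 36.3% of the genes above the median level, where all 31 lay, and the median difference was -0.19. Nasp, which holds the pool of soluble H3 and H4, read 7.96 and 8.18 on the Glut1-deficient arrays and 8.88 and 8.70 on the WT arrays (difference -0.72, limma adjusted p = 0.0565). Asf1b, an H3 and H4 chaperone of dividing cells, read 7.53 and 7.85 on the Glut1-deficient arrays and 8.64 and 8.40 on the WT arrays (difference -0.83, limma adjusted p = 0.0643). Its paralogue Asf1a overlapped, with a difference of -0.05 (95% interval -0.28 to 0.18). Chaf1a, the large subunit of the assembly factor that works at replication forks, differed by -0.73 (limma adjusted p = 0.0680). Tonsl and Mms22l, partners in a complex that binds new histones at forks, differed by -0.53 and -0.87 (limma adjusted p = 0.0758 and 0.0818).

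S-phase genes were measured on the same arrays. Of 34 S-phase genes measured, 4 fell (Rpa2, Cdc6, Tyms and Mcm7), 33 were lower on both arrays, and the median difference was -0.62. All 34 lay above the median level, where 1.89% of all genes fell and 36.3% were lower on both arrays. Of the 38 histone genes, 13 were lower on both arrays and 5 higher, against 27.7% and 25.5% of all genes, with a median of -0.07. Of these 38, 21 lay at or below the median level, so the 2 lists differ in level. The 12 replication-dependent histones above that level had 9 lower on both arrays and a median of -0.72. Taken by array, relative to the mean of the WT arrays, S-phase genes stood at a median of -0.68 for Glut1-deficient array 1 and -0.45 for Glut1-deficient array 2. All 30 replication-dependent histone genes had medians of -0.15 on Glut1-deficient array 1 and -0.19 on Glut1-deficient array 2, in the opposite order. The 12 brighter of them had medians of -0.85 and -0.65 on these arrays, with array 1 the lower of the pair in 12 of 12, and of the 18 dimmer ones 8 had the lower value on array 1. All 8 variants had medians of -0.02 and 0.04, and the 5 variants above the median level -0.12 and -0.23. How far the number of cells in S phase enters the histone differences was not tested.

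Markers of other cell types also differed between the genotypes. Among all genes, 1.79% rose, 25.5% were higher and 27.7% lower on both Glut1-deficient arrays, and 22.2% had an unadjusted p under 0.05 by limma. Above the median level, 31.9% were higher and 36.3% lower on both. Of 9 fibroblast markers measured, 0 passed limma and 8 were higher on both Glut1-deficient arrays (8 at an unadjusted p under 0.05), and their summed linear intensity was 2472 and 1308 on the Glut1-deficient arrays and 658 and 541 on the WT arrays. Of 9 melanocyte markers, 4 rose (Dct, Mlana, Pmel and Tyrp1), with sums over the 9 of 1004 and 1071 on the Glut1-deficient arrays and 503 and 410 on the WT arrays. Bright genes weigh most in such sums. Ednrb and Mitf were higher on both Glut1-deficient arrays without passing, Sox10 was lower on both (-0.14), and Tyr and Kit overlapped. The 9 keratinocyte markers summed to 15394 and 15821 on the Glut1-deficient arrays and 16772 and 16609 on the WT arrays. By limma 0 of them passed, and 6 had an unadjusted p under 0.05, 4 of them lower and 2, Dsg3 and Perp, higher. Of 5 endothelial markers Kdr rose by a log2 difference of 2.38, while Emcn was higher on both Glut1-deficient arrays (0.14), Pecam1 and Cdh5 were lower on both (-0.35 and -0.10), Tek overlapped, and these 4 did not pass. By limma, 0 of 7 immune and 0 of 5 germ-cell markers passed. At an unadjusted p under 0.05 there were 3 immune markers (2 lower, 1 higher) and 1 germ-cell marker (higher). The part of these cells in the histone differences was not tested.

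**Figure D5:**
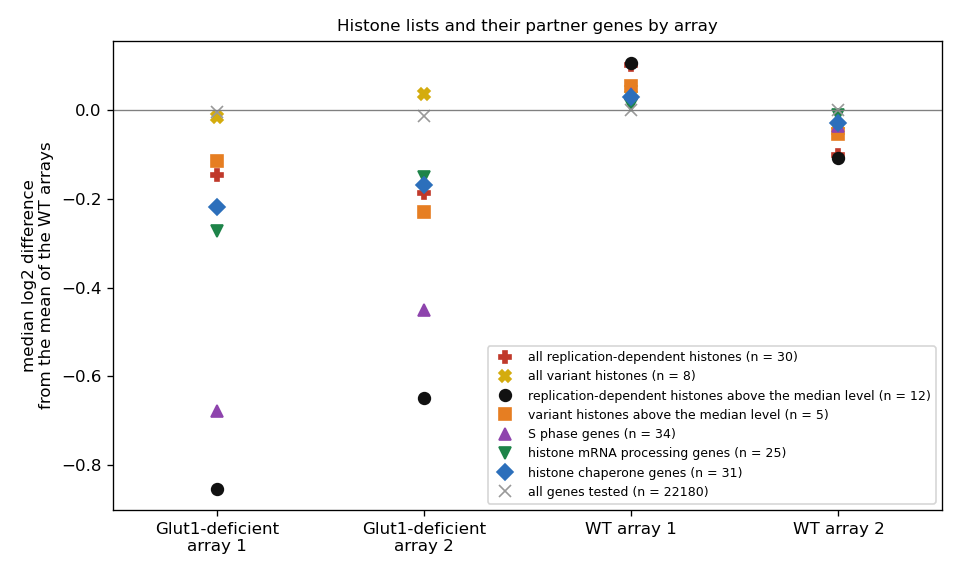
Median log2 difference from the mean of the WT arrays (y axis) for each array (x axis), for the histone classes whole and above the median level, the processing and chaperone genes and the S-phase genes. Glut1-deficient array 1 lies lower than array 2 for the S-phase genes (-0.68 and -0.45) and the brighter replication-dependent histones (-0.85 and -0.65), but not for all replication-dependent histones (-0.15 and -0.19) or the brighter variants (-0.12 and -0.23).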

How the data were processed

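Total RNA was labelled and hybridised to whole-transcript mouse arrays, 2 per genotype. The deposited values are log2 intensities, 1 per array row, which the authors obtained by RMA in Affymetrix Expression Console according to the submitters' processing notes. The scale was read from the values. Versions and settings are not given in the sources. RMA gives all arrays a common distribution and so removes differences in total signal. The sources used here do not say how the RNA was primed, so the capture of mRNAs without a poly(A) tail relative to others is unknown. Depth does not apply to arrays, and their number limits the precision.

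Rows with exactly 1 gene symbol in the platform annotation entered (23521 of 41345, with 1814 naming several genes), and the brightest row stood for each of 1082 genes with several, which left 22180 genes. The 38 members matched the RefSeq gene table of GRCm38.p6. A member was replication-dependent if its symbol, or a synonym there, carries a cluster name, and variant otherwise. No array build is given in the sources used here, and coordinates are those of RefSeq promoters. Genotypes were compared by moderated tests (R 4.3.3, limma 3.58.1, functions lmFit and eBayes, prior df 2.95, residual df 2), two-sided, Glut1-deficient minus WT, with Benjamini-Hochberg adjustment over all genes at 0.05, and the code was tested on simulated arrays. For a single value, 2 against 2 arrays allow no exact p below 0.333. Arrays are pools of 2 plates which the labels call biological replicates, so a p-value covers only how these pools vary. Replicate numbers were not used as pairs: deviations of same-numbered arrays correlated at r = -0.0251.

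Members, classes and gene lists were chosen with earlier results of these data known. Named were each member past the threshold, each variant, per family of cluster genes the brightest, the 2 most negative and the most positive, and in each partner list the genes past the threshold or else the 5 with the smallest p; further members and partner genes were named after their values were seen. Alternatives were an intensity trend, a robust prior, median centring, cyclic loess, genes above the median level, all rows, the mean of rows, each array left out, a replicate block and a threshold of 0.1. Added after seeing the data were the classes without testis types, pseudogenes and the variants H1f7, H1f8 and H2bfm, and classes by present symbol alone.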

Additional observations from a re-analysis of the deposited data

How the results depend on the processing

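The direction of H2bc12, H2bc3, H2ac20 and H2ax was the same in 15 of 15 alternatives, and each passed in 9 of 15. Most alternatives could not change the direction. The trend, the robust prior, the genes above the median level, all rows, the mean of rows and the block left these log2 differences unchanged. Leaving 1 array out cannot reverse groups that do not overlap. The threshold of 0.1 and the changes of class repeat the reported fit of each gene, so their passes add nothing. Their log2 differences ranged over -1.71 to -1.15, -1.004 to -0.75, -0.75 to -0.71 and -0.80 to -0.60. Counts of genes past the threshold depended on the setting, in the order replication-dependent, variant, processing, chaperone and all genes. They were 3, 1, 1, 0 and 630 as reported, 10, 2, 6, 11 and 2671 with an intensity trend, and 10, 2, 7, 11 and 2729 with a robust prior as well. They were 9, 2, 6, 9 and 2327 among genes above the median level and 7, 2, 4, 6 and 1855 at a threshold of 0.1. Median centring gave 2 processing genes. With all rows in the fit, limma passed 0 in each (6694 of 41345 rows at an unadjusted p under 0.05). With each array left out in turn, limma passed 0 in each (2948 to 4627 of all genes at an unadjusted p under 0.05). The replicate number as a block gave 0, 0, 0, 0 and 37 (4335 at an unadjusted p under 0.05), and the numbers did not pair the arrays. For these counts the cause was not tested, except that fewer or more genes were tested in 2 of the settings.

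The replication-dependent median was -0.72 among genes above the median level, -0.50 without testis types and pseudogenes and -0.33 with classes by present symbol. The gap to the variants, cut or regrouped in the same setting, was then -0.65, -0.43 and -0.34. For the gap of -0.43, the variants H1f7, H1f8 and H2bfm were left out as well. With each array left out, the gap ranged from -0.23 to -0.08 and the variant median from -0.02 to 0.04. The differences of H1f2, H1f7, H1f10, H2aj and H2az1, none of them past the threshold, took either sign across the alternatives, as did the variant median (-0.07 to 0.04). Arrays give no detection calls here, so genes near the median level or below it may lie near background.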
